A study of Mus musculus with 6 samples.

Results

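Named long noncoding RNAs (8 of the 55401 gene identifiers in the table, all 8 among the 17778 genes with enough reads to be tested) were followed in mouse embryonic stem (ES) cells: Lncenc1, Neat1, Malat1, Tug1, Miat, Dancr, Mir17hg and Mir124a-1hg. They were chosen by symbol, as named noncoding RNAs without an imprinting role, and Lncenc1 was chosen with its fall in this comparison already known. The values that picked it are those of the comparison described here, so levels and differences of the 8 RNAs are given as a description, with no p-value, and where one is said to be called over all genes, that too is a description and supports nothing. The choice also meant to leave out hosts of small nucleolar RNAs, but the annotation places the H/ACA snoRNA Snora26 inside Dancr. Polyadenylated RNA was sequenced from 3 libraries of ES cells labelled KO and grown with doxycycline for 7 days, and from 3 libraries of ES cells labelled as expressing 3XHA-Taf13 and grown without treatment for 7 days. The KO label and doxycycline always occurred together and cannot be told apart. Taf13 is a subunit of TFIID, the complex that places RNA polymerase II at promoters. Each library came from its own Petri dish, and the sources used here give neither the line's further alleles nor the number of clones.

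Long noncoding RNAs are transcribed and mostly spliced like messenger RNAs but are not translated into a known protein. Lncenc1 is an abundant RNA of naive mouse ES cells that was reported to bind the RNA-binding proteins PTBP1 and HNRNPK and to affect transcription of glycolysis genes. Neat1 and Malat1 are neighbouring nuclear RNAs: Neat1, in its long isoform, is the scaffold of paraspeckles, and Malat1 gathers in nuclear speckles, bodies rich in splicing factors. Mir17hg and Mir124a-1hg are host transcripts from which the nucleases DROSHA and DICER cut microRNAs.

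The sequences that Mir17hg carries are shown because its level was lower in KO cells and several genes below are known targets of these microRNAs. They are the mature forms of the 6 guide strands of the miR-17-92 cluster, from RefSeq GRCm38.p6, on the plus strand of chromosome 14, with the seed (bases 2 to 8) in capitals.
miR-17-5p: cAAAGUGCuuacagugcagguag
miR-18a-5p: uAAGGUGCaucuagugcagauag
miR-19a-3p: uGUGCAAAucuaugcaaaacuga
miR-20a-5p: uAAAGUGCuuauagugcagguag
miR-19b-3p: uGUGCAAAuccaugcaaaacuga
miR-92a-3p: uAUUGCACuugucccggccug
The seeds fall into 4 groups: miR-17-5p and miR-20a-5p share AAAGUGC, miR-19a-3p and miR-19b-3p share GUGCAAA, miR-18a-5p has AAGGUGC and miR-92a-3p has AUUGCAC. The libraries hold no mature microRNAs, so that only the host transcript was measured. The hairpin genes inside Mir17hg had 0 counts in all 6 libraries, but they overlap its exons on the same strand. Those counts do not show whether hairpin RNA was present.

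Levels are given as CPM, read counts scaled to library size after TMM scaling, and each difference is a log2 fold change of KO over expressing cells with its standard error (SE) and 95% interval from edgeR. Of the 8 RNAs, 1 was called higher and 4 were called lower in KO cells at an adjusted p under 0.05, where 40.0% of all tested genes were called (19.2% higher, 20.8% lower). The libraries of the 2 groups did not overlap for 6 of the 8 RNAs, against 53.5% of all tested genes. Nothing is read from these counts, since the RNAs were chosen with this comparison in view. The median log2 fold change was -0.56 over the 8 RNAs, -0.01 over all tested genes and 0.37 over the 1399 tested genes annotated as long noncoding RNAs. Counts called in the gene lists below are to be read beside the 40.0% of all tested genes that were called. No list was tested as a set.

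**Figure D1:**
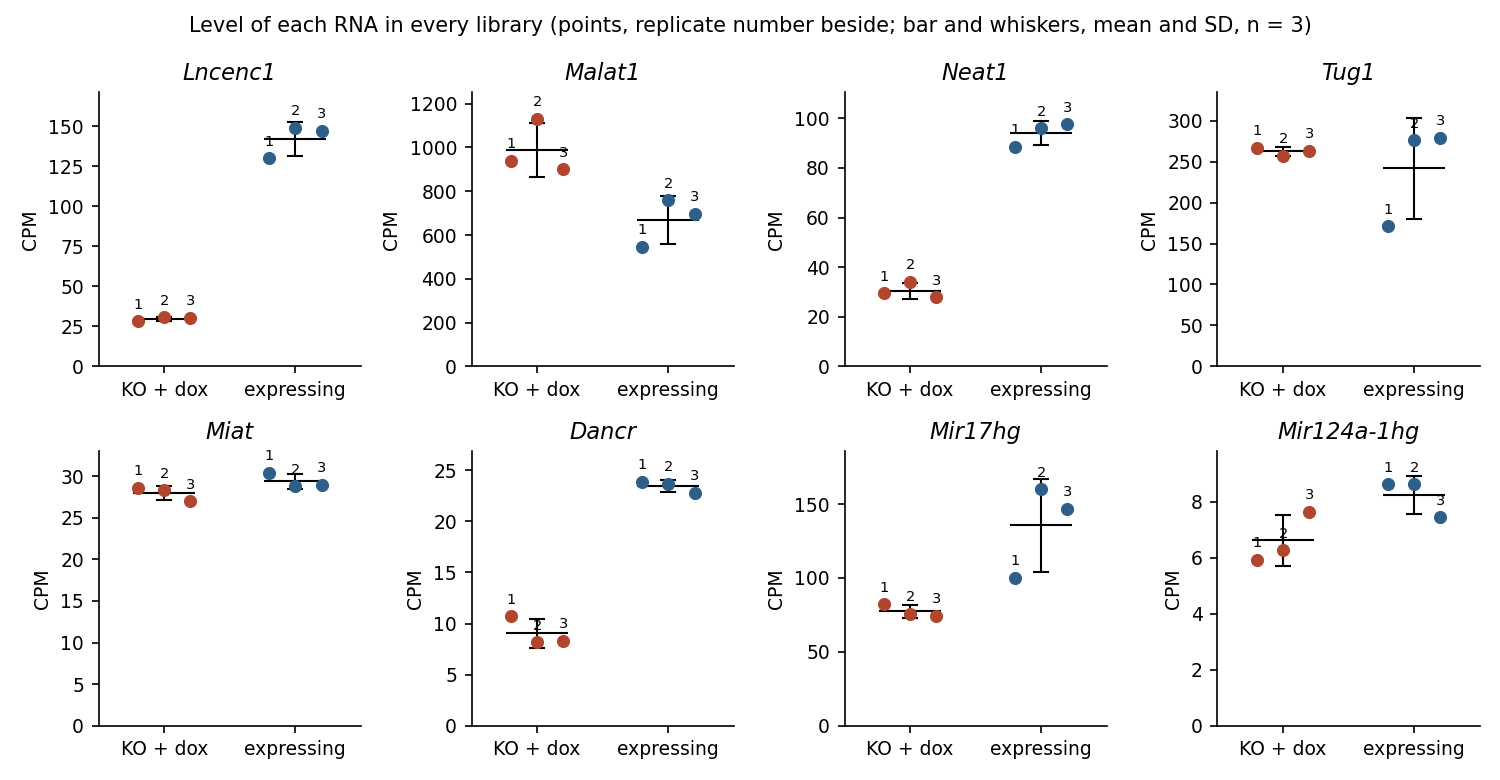
Level of each RNA in CPM (vertical axes, linear from 0) in every library, KO with doxycycline on the left and expressing cells on the right. Numbers beside points are replicate numbers, and bars with whiskers are mean and SD (n = 3). Lncenc1, Neat1, Dancr and Mir17hg sit lower in all KO libraries, and Malat1 sits higher.

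Total counts ran from 31219328 to 50328010 per library, so that 3 counts correspond to 0.0581 to 0.0961 CPM. Taf13 itself had 422, 634 and 699 counts in KO libraries, against 244, 445 and 447 in expressing libraries (log2 fold change 0.40, SE 0.147, adjusted p = 0.0578, edgeR quasi-likelihood test), and gene counts do not separate tagged from chromosomal Taf13 reads, so they do not check the labels. Expressing replicate 1 stood apart from the other expressing libraries on the second principal component (34.6, against -21.3 and -17.2). The counts and medians that it moved most are also given without it. All 6 libraries held the pluripotency markers: 9 of 9 were tested, 8 fell and their summed level was 1132 to 1146 CPM in KO cells and 2032 to 2186 CPM in expressing cells.

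Lncenc1 (chr13:97434970-97497007, plus strand, GRCm38/mm10, an intergenic lncRNA that RefSeq also lists as Platr18) was the least abundant in KO cells relative to expressing cells among the 8. It had 28.1, 30.6 and 30.5 CPM in KO cells, against 130.0, 149 and 147 CPM in expressing cells. The groups were far apart, and within each group the libraries lay close together. Means were 29.7 ± 1.43 CPM in KO cells and 142 ± 10.2 CPM in expressing cells (SD, n = 3 each), a 4.77-fold lower level in KO cells. The log2 fold change was -2.25 (SE 0.0749, interval -2.42 to -2.08), which ranked 65 from the lowest among all 17778 tested genes and 4 from the lowest among the 605 lncRNAs with a mean of at least 1 CPM. It rested on 980 to 1574 counts in KO libraries and on 4058 to 6549 in expressing libraries.

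Promoter windows are printed for Lncenc1 and Dancr, which were lower in KO cells, and for Malat1, which was higher. Each runs from 250 bases before to 50 bases after the RefSeq start, 5′ to 3′ on the gene's strand, from RefSeq GRCm38.p6. Capitals mark every match to 6 motifs searched on both strands: the TATA box, spelled TATAAA, the POU octamer, spelled ATGCAAAT, the E-box, spelled CACGTG, the CCAAT box, spelled CCAAT, the core of the cyclic AMP response element, spelled TGACGT, and the GC box, spelled GGGCGG. No match overlapped another in these windows.
Lncenc1, chr13:97434720-97435019, plus strand: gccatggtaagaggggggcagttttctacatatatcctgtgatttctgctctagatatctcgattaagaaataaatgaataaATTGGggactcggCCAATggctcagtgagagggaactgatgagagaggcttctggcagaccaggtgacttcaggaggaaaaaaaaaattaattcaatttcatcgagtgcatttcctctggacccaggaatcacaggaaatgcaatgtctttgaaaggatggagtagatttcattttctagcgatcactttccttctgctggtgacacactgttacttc
Dancr, chr5:74092810-74093109, plus strand: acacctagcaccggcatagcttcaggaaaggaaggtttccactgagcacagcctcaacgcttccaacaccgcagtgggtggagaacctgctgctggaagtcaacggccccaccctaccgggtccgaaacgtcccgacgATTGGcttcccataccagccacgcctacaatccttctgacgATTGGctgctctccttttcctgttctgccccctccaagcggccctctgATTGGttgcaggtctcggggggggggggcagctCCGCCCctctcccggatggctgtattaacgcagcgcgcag
Malat1, chr19:5802623-5802922, minus strand: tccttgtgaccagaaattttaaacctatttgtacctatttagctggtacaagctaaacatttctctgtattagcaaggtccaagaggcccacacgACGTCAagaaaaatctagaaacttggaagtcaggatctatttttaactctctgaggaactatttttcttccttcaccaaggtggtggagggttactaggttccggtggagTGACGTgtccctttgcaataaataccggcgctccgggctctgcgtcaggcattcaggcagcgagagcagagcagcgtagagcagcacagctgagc
The Lncenc1 window held 2 CCAAT matches, at -168 (minus strand) and -155 (plus strand) from the start. Dancr held 3 CCAAT matches, all on the minus strand, at -112, -71 and -23, and 1 GC box at 11. Malat1 held 2 TGACGT matches, at -155 and -45. Of 32851 RefSeq windows of the same length, 37.4% held a CCAAT box, 7.51% the response element core, 35.7% a GC box, 13.6% a TATA box, 7.15% an E-box and 1.74% a POU octamer. The matches describe the letters of these windows and are not binding sites. Windows were matched for 6 of the 8 RNAs, and those of Tug1, Miat and Mir17hg, which start inside the GENCODE gene, are not printed.

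Of the tested genes nearest to Lncenc1, Gm2379, a lincRNA 14.2 kb beyond its end, fell (0.234 ± 0.0157 CPM in KO cells and 0.794 ± 0.139 CPM in expressing cells, log2 fold change -1.73, adjusted p = 0.0012). The processed pseudogene Gm8756, which lies within the span of Lncenc1, also fell (log2 fold change -1.28, SE 0.202, adjusted p = 9.78e-04). C430039J16Rik, 149 kb before its start, did not pass (log2 fold change 0.77, SE 0.332, adjusted p = 0.0914). Both genes that fell were expressed at a small part of the level of Lncenc1. Gm2379 lies on the same strand as Lncenc1, and Gm8756 on the opposite strand without exon overlap. Whether some of their reads come from the Lncenc1 transcript was not tested.

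The genes most like Lncenc1 over the 6 libraries, by the root mean square difference of centred log2 CPM among 14074 genes with a mean of at least 1 CPM, were Atf4 (0.0787), Rpl22l1 (0.101), Rpl39l (0.11), Slc15a1 (0.11) and Mc5r (0.114). The median over all these genes was 1.13. Here, and for Neat1 and Mir17hg below, the measure mostly follows the fold change between the groups. An RNA with a larger change thus has a larger median, and a value below the median is no test of shared control. Atf4, the transcription factor of the integrated stress response, had 41.9, 46.1 and 42.9 CPM in KO cells, against 210.1, 202 and 220.0 CPM in expressing cells. Rpl22l1 and Rpl39l, which encode paralogues of ribosomal proteins, fell by 2.34 and 2.13 on the log2 scale. Likeness measures only that the 6 values move alike, and reads of ribosomal protein genes can be shared with processed pseudogenes.

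Lncenc1 is 1 of the Platr transcripts, a series named for expression in pluripotent cells. Of the other pluripotency-associated lncRNAs listed, 24 of 34 matched were tested, 4 rose and 9 fell, with a median log2 fold change of -0.28. The annotation classes Tunar, among the 4 that rose, and Platr17 and Platr25, which did not pass, as protein-coding. Platr24, which the annotation names Kis2, is among the 9 that fell and is counted again among the microRNA host genes below. Without expressing replicate 1, 5 rose and 12 fell. Platr3 fell (8.02 ± 0.466 CPM in KO cells and 13.7 ± 0.619 CPM in expressing cells, log2 fold change -0.78, adjusted p = 1.68e-04), as did Platr27 (-0.77, adjusted p = 1.13e-04). Platr21 rose (29.2 ± 1.66 CPM in KO cells and 16.4 ± 0.427 CPM in expressing cells, log2 fold change 0.83, adjusted p = 4.60e-05), as did Platr22 (0.82, adjusted p = 1.13e-04). The named Platr RNAs thus moved in both directions.

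Among 14 tested regulators and protein partners of the 8 RNAs, 7 fell and the other 7 did not pass. Without expressing replicate 1, 9 fell and 1 rose. Nanog, the homeobox factor of naive pluripotency, fell to 119 ± 6.75 CPM in KO cells, against 281 ± 21.8 CPM in expressing cells (log2 fold change -1.24, adjusted p = 3.98e-06). Pou5f1, the core pluripotency factor OCT4, fell by 0.73 on the log2 scale (adjusted p = 3.22e-04). Rest, a repressor of neuronal genes, including miR-124 host genes, fell by 0.96 (adjusted p = 2.83e-05). Mycn, a MYC family transcription factor, fell by 0.79 (adjusted p = 7.34e-06). Ptbp1, a reported partner of Lncenc1 fell by 0.42, and Hnrnpk, the other reported partner, did not pass (653 ± 7.8 CPM in KO cells and 698 ± 113 CPM in expressing cells, log2 fold change -0.10, adjusted p = 0.488). Both were singled out after their values were seen.

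Of 17 glycolysis genes tested, 11 fell and 2 rose, with a median log2 fold change of -0.41. Without expressing replicate 1, 11 fell and 4 rose, and the median was -0.27. Pfkp, a phosphofructokinase, fell to 122 ± 2.94 CPM in KO cells, against 280.2 ± 6.53 CPM in expressing cells (log2 fold change -1.20, adjusted p = 1.11e-06). Ldha, lactate dehydrogenase A, had 605 ± 3.5 CPM in KO cells and 1206 ± 100.4 CPM in expressing cells (adjusted p = 7.27e-06). Tpi1, triosephosphate isomerase, and Hk2, hexokinase 2, fell by 0.72 and 0.57 (adjusted p = 8.48e-05 and 4.99e-05). The 11 include Gapdh (27 CPM in KO cells and 39.7 CPM in expressing cells) and Pgk1 (17 and 24.4 CPM). These were named outside the rule, for their low levels, and whether their reads are shared with processed pseudogenes was not tested. Whether the levels of the glycolysis genes depend on Lncenc1 was not tested.

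Neat1 (chr19:5824708-5845478, minus strand) is transcribed as a short polyadenylated and a long isoform that share their start, and gene-level counts do not separate them. Poly(A) selection favours the short isoform, so the level of the long isoform and paraspeckles themselves were not measured. It had 29.4, 34.2 and 27.9 CPM in KO cells, against 88.6, 96 and 97.5 CPM in expressing cells. All KO libraries were well below all expressing libraries. Means were 30.5 ± 3.31 CPM in KO cells and 94 ± 4.75 CPM in expressing cells (SD, n = 3 each), with a log2 fold change of -1.62 (SE 0.0866, interval -1.82 to -1.43).

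The gene on the far side of Neat1, Frmd8, 4.22 kb away, did not pass (58.9 ± 1.83 CPM in KO cells and 52.3 ± 5.6 CPM in expressing cells, log2 fold change 0.17, adjusted p = 0.124). The genes most like Neat1 were Gpt2 (root mean square difference 0.0678), Inhbb (0.0753), Nlrp9b (0.113), Mthfd2 (0.115) and Foxn4 (0.115), where the median over all compared genes was 0.82. Gpt2, a mitochondrial alanine aminotransferase, had 14, 14.6 and 13.7 CPM in KO cells, against 40.9, 42.6 and 46.1 CPM in expressing cells. Mthfd2, a mitochondrial folate enzyme, had 38.6, 35.8 and 37.3 CPM in KO cells, against 106, 116 and 117 CPM in expressing cells.

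Of 15 genes for paraspeckle proteins, 6 fell and 1 rose, by at most small amounts, with a median log2 fold change of -0.13. Dazap1, an RNA-binding protein, had 90.9 ± 2.17 CPM in KO cells and 117 ± 10.6 CPM in expressing cells (log2 fold change -0.37, adjusted p = 0.00349), and Hnrnph3, which encodes an hnRNP protein, rose by 0.32 (adjusted p = 0.00602). Taf15, an FET family RNA-binding protein, fell by 0.22 (adjusted p = 0.0129), and Cpsf7, a subunit of cleavage factor I, fell by 0.20 (adjusted p = 0.017). The number called was 3 with scaling by library totals (2 higher, 1 lower), 2 without expressing replicate 3 or KO replicate 2, 3 without KO replicate 1 or 3, and 13 without expressing replicate 1.

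Malat1 (chr19:5795690-5802672, minus strand) lies 22 kb from Neat1 on the same strand and was the second most abundant tested lncRNA by CPM. It had 938, 1131 and 901 CPM in KO cells, against 546, 759 and 698 CPM in expressing cells. The groups did not overlap, and both varied between libraries. Means were 989.8 ± 123 CPM in KO cells and 668 ± 109.7 CPM in expressing cells (SD, n = 3 each), with a log2 fold change of 0.57 (SE 0.123, interval 0.29 to 0.84). Without expressing replicate 1, which had the lowest value, it was 0.47 and was no longer called. Both RNAs lie side by side, and their ratio differed between the groups: per kb of exon, Malat1 was 95, 98.2 and 95.9 times Neat1 in KO cells, against 18.3, 23.5 and 21.3 times in expressing cells. The Neat1 length used, 20771 bases, is that of the long isoform. The ratios are too high if its reads come mainly from the short isoform, while the length was the same for both groups.

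Malat1 is not polyadenylated in the usual way: RNase P cuts its primary transcript and the remaining end folds into a triple helix, which METTL16 binds, and an encoded A-rich stretch lets it be caught by poly(A) selection. Of 12 tested genes for RNase P subunits, ELAC2 and METTL16, 7 fell and 5 did not pass, with a median log2 fold change of -0.29. Mettl16 had 139.8 ± 6.89 CPM in KO cells and 198 ± 8.34 CPM in expressing cells (log2 fold change -0.50, adjusted p = 2.32e-04). The RNase P subunit genes Rpp25, Rpp38 and Rpp14 fell by 0.74, 0.39 and 0.33 (adjusted p = 4.61e-04, 0.00352 and 0.00281).

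Of 14 nuclear speckle protein genes, 4 fell and 2 rose, with a median log2 fold change of -0.10. The splicing factor genes Srsf6 (log2 fold change -0.29, adjusted p = 0.0113), U2af2 (-0.31, adjusted p = 0.0248) and Acin1 (-0.26, adjusted p = 0.0145) fell, and Srsf5 rose (0.20, adjusted p = 0.0328). The number called was 11 without expressing replicate 1, 3 without expressing replicate 3, and 2 without KO replicate 1 or 3. Without KO replicate 2, edgeR called 0, with 5 of the 14 at an unadjusted p under 0.05. With scaling by library totals 3 rose and 1 fell.

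**Figure D2:**
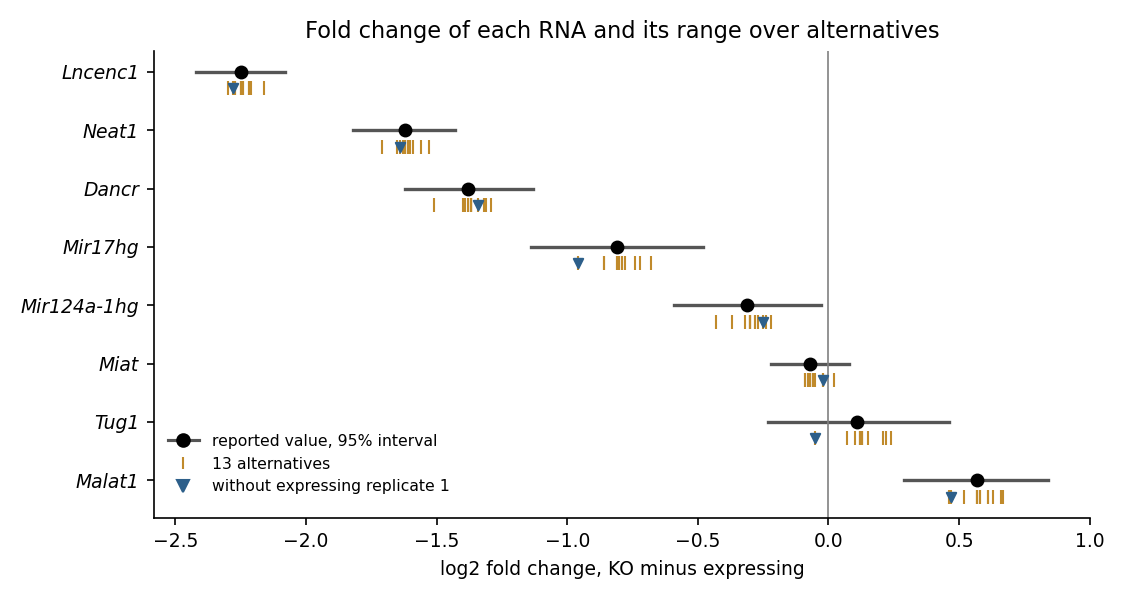
Log2 fold change of KO over expressing cells (horizontal axis) for each RNA, with the reported value and its 95% interval (black) and the values under 13 alternatives (ticks). Triangles mark the fit without expressing replicate 1. Lncenc1, at -2.25, ranged from -2.30 to -2.16, and Tug1, at 0.11, was -0.05 without expressing replicate 1.

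Dancr (chr5:74093060-74095406, plus strand), named for opposing differentiation in human epidermal progenitors, is a short host of the snoRNA Snora26. Snora26 had 0 counts, but it overlaps a Dancr exon on the same strand, so the 0 does not show whether its RNA was present. Dancr had 10.7, 8.16 and 8.33 CPM in KO cells, against 23.9, 23.7 and 22.8 CPM in expressing cells. The expressing libraries lay within a narrow band, and every KO library was under it. Means were 9.05 ± 1.4 CPM in KO cells and 23.5 ± 0.572 CPM in expressing cells (SD, n = 3 each), with a log2 fold change of -1.38 (SE 0.109, interval -1.62 to -1.13). Of its neighbours, Usp46, a deubiquitinase gene 24.6 kb away, did not pass (log2 fold change 0.03, adjusted p = 0.831), and Rasl11b, 99.9 kb away, rose (8.68 ± 0.272 CPM in KO cells and 4.71 ± 0.0834 CPM in expressing cells, log2 fold change 0.88, adjusted p = 1.12e-04).

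Mir17hg (chr14:115042879-115046727, plus strand) carries the microRNAs shown above. It had 82.1, 75.6 and 74.3 CPM in KO cells, against 100, 160.1 and 147 CPM in expressing cells. Every KO library was below every expressing library, and expressing replicate 1 was well below the other 2 expressing libraries. Means were 77.3 ± 4.17 CPM in KO cells and 136 ± 31.5 CPM in expressing cells (SD, n = 3 each), with a log2 fold change of -0.81 (SE 0.146, interval -1.14 to -0.48) that was -0.96 without expressing replicate 1. The nearest tested genes are far away: Gpc6, a glypican gene at 1879 kb, rose (6.63 ± 1.43 CPM in KO cells and 2.55 ± 0.0592 CPM in expressing cells, log2 fold change 1.38, adjusted p = 2.02e-04), and Tpm3-rs7, at 1726 kb, did not pass (log2 fold change 0.00, adjusted p = 0.991).

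The genes most like Mir17hg were Rpl30 (root mean square difference 0.0817), Syt4 (0.082), Zfp992 (0.0857), Ttpa (0.0871) and Nap1l1 (0.0914), where the median was 0.458. Nap1l1, a histone chaperone gene, averaged 435 ± 16.7 CPM in KO cells and 752 ± 115 CPM in expressing cells. Ttpa, which encodes a vitamin E transfer protein, had 13.1, 11.6 and 11.2 CPM in KO cells, against 13.5, 25.5 and 23.4 CPM in expressing cells. Expressing replicate 1 was the lowest of its group for all of these genes, as for Mir17hg (Rpl30: 29.2 CPM, against 40.1 and 39.9). Their likeness to Mir17hg thus also follows that library.

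Of 11 tested genes known as targets of the miR-17-92 microRNAs, 4 rose and 1 fell, where 19.2% of all tested genes rose and 20.8% fell. The median log2 fold change of the targets was 0.14. The median was 0.05 without expressing replicate 1, 0.23 without expressing replicate 3 and 0.08 with the GC trend removed. The kinase gene Lats2 had 20 ± 0.558 CPM in KO cells and 6.67 ± 1.56 CPM in expressing cells (log2 fold change 1.58, adjusted p = 5.26e-05). Cdkn1a, which encodes the cell cycle inhibitor p21, had 146 ± 9.23 CPM in KO cells and 70.6 ± 2.87 CPM in expressing cells (log2 fold change 1.05, adjusted p = 5.95e-06). Rbl2, a retinoblastoma family gene, rose by 0.52 (adjusted p = 0.00363), and Bcl2l11, which encodes the pro-apoptotic protein BIM, fell by 0.30 (adjusted p = 0.00883). The number called was 3 without KO replicate 2. Mature microRNA levels were not measured, and whether these changes depend on them was not tested.

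Mir124a-1hg (chr14:64587331-64593961, plus strand) hosts the neuronal microRNA miR-124. It had 5.93, 6.26 and 7.64 CPM in KO cells, against 8.62, 8.62 and 7.44 CPM in expressing cells. The groups overlapped through the highest KO and the lowest expressing library. Means were 6.61 ± 0.904 CPM in KO cells and 8.23 ± 0.678 CPM in expressing cells (SD, n = 3 each), with a log2 fold change of -0.31 (SE 0.124, interval -0.59 to -0.03) that was not called over all genes. It was called without KO replicate 3 (-0.43). Its neighbour Kif13b, a kinesin gene 53.3 kb away, fell (log2 fold change -0.41, adjusted p = 0.00473), and Msra, 131 kb away, did not pass (0.24, adjusted p = 0.0957). Of 7 tested neural markers, 4 fell and 2 rose, with a summed level of 279 to 298 CPM in KO cells and 321 to 379 CPM in expressing cells.

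Of 8 other microRNA host genes tested, 2 rose and 3 fell. Mir22hg had 16.1 ± 0.723 CPM in KO cells and 6.58 ± 0.303 CPM in expressing cells (log2 fold change 1.29, adjusted p = 9.26e-06). The host of miR-100, which the annotation names 3110039I08Rik, rose by 1.02 (adjusted p = 0.00383). Mir670hg fell to 0.921 ± 0.191 CPM in KO cells, against 2.76 ± 0.299 CPM in expressing cells (log2 fold change -1.61, adjusted p = 1.87e-04). Mcm7, a helicase subunit gene that carries a paralogue cluster of miR-17-92, fell by 0.47 (adjusted p = 3.87e-04). Mir22hg shares exon sequence on the same strand with Tlcd2, and their reads may not be fully separated.

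Of 20 genes that make or use microRNAs, 4 fell and 3 rose, with a median log2 fold change of 0.03. Trim71, a let-7 target of ES cells, and Ago2, the slicing Argonaute, both fell by 0.37 (adjusted p = 8.46e-04 and 0.00132), and Tnrc6c, a GW182 protein gene, fell by 0.36 (adjusted p = 0.00258). Tut4, a terminal uridylyltransferase gene, rose by 0.37 (adjusted p = 0.00356). The number called was 13 without expressing replicate 1.

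Tug1 (chr11:3639785-3649673, minus strand), a broadly expressed nuclear and cytoplasmic RNA, had 267, 257 and 263 CPM in KO cells, against 171, 276 and 279 CPM in expressing cells. The KO libraries lay between expressing replicate 1 and the other expressing libraries. Means were 262 ± 4.64 CPM in KO cells and 242 ± 61.4 CPM in expressing cells (SD, n = 3 each), with a log2 fold change of 0.11 (SE 0.155, interval -0.23 to 0.46), which was -0.05 without expressing replicate 1. Its exons overlap those of Morc2a on the opposite strand, which had 65134 counts and did not pass (log2 fold change -0.08, adjusted p = 0.27). The strand option of the counting is not given in the sources used here, and whether reads of this pair are mixed was not tested. Elsewhere, Gm37376, which lies inside Malat1 on the opposite strand, had 40 counts in total, against 17032 to 50975 per library for Malat1. Its other neighbours, Smtn and Osbp2, did not pass (adjusted p = 0.365 and 0.958).

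Miat (chr5:112213228-112229395, minus strand), known from neurons where it forms nuclear bodies with splicing factors, had 28.6, 28.3 and 27 CPM in KO cells, against 30.4, 28.8 and 29 CPM in expressing cells. The groups did not overlap, but the gap between the highest KO and the lowest expressing library was smaller than the spread within either group. Means were 28 ± 0.839 CPM in KO cells and 29.4 ± 0.856 CPM in expressing cells (SD, n = 3 each), with a log2 fold change of -0.07 (SE 0.0679, interval -0.22 to 0.08). Scaling by library totals turned it to 0.02. Tpst2, 47.3 kb away, fell (log2 fold change -0.33, adjusted p = 0.0238), and Mn1, 756 kb away, did not pass (-0.38, adjusted p = 0.122).

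Per kb of exon, Malat1 was the most abundant in both groups (142 ± 17.7 CPM per kb in KO cells and 95.6 ± 15.7 in expressing cells). In KO cells it was followed by Tug1 (26.9), Mir17hg (21.9), Lncenc1 (9.01), Dancr (3.86), Miat (3.01), Neat1 (1.47) and Mir124a-1hg (1.38), and only the last pair had overlapping ranges over libraries. In expressing cells it was followed by Lncenc1 (42.9), Mir17hg (38.3), Tug1 (24.9), Dancr (9.99), Neat1 (4.53), Miat (3.16) and Mir124a-1hg (1.71), where the ranges of Lncenc1 and Mir17hg, and those of Mir17hg and Tug1, overlapped. Lncenc1 thus stood after Tug1 in KO cells and before it in expressing cells. The Neat1 values divide by the length of its long isoform and would be higher if its reads came mainly from the short one. Together the 8 RNAs took 0.137% to 0.163% of all counts in KO libraries and 0.11% to 0.144% in expressing libraries. A lower level in bulk RNA cannot tell fewer cells with the RNA from less of it per cell.

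**Figure D3:**
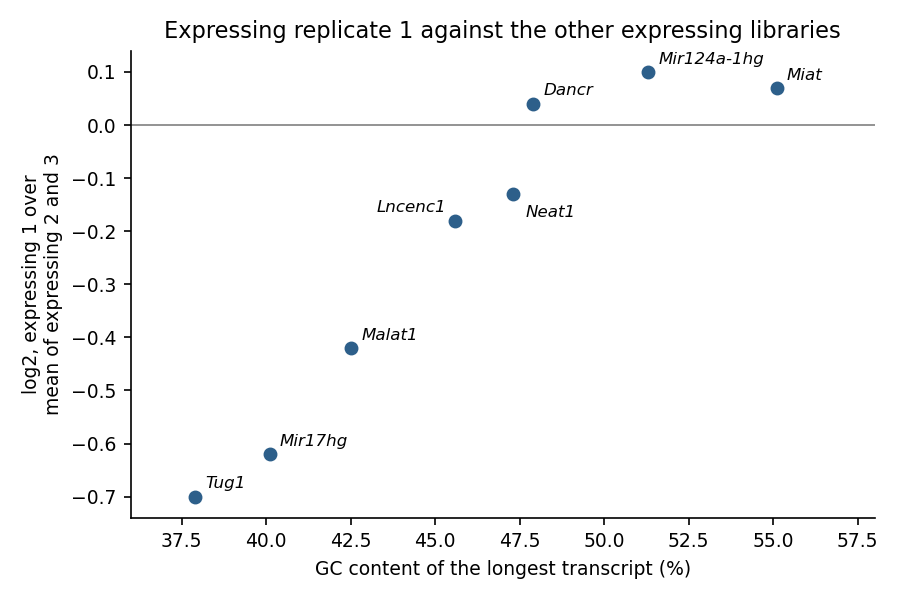
Log2 ratio of expressing replicate 1 over the mean of expressing replicates 2 and 3 (vertical axis) against the GC content of the longest transcript in percent (horizontal axis), 1 point per RNA (8 RNAs). Tug1, Mir17hg and Malat1, with the least GC, lie lowest.

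Expressing replicate 1 differed from the other expressing libraries by RNA. Its log2 ratio to their mean was -0.70 for Tug1, with a GC content of 37.9%, -0.62 for Mir17hg (40.1%) and -0.42 for Malat1 (42.5%), against -0.18 for Lncenc1 (45.6%), -0.13 for Neat1 (47.3%), 0.04 for Dancr, 0.10 for Mir124a-1hg (51.3%) and 0.07 for Miat (55.1%). With a GC trend removed from each library, the log2 fold changes were -2.30 for Lncenc1, -1.65 for Neat1, -1.40 for Dancr, -0.86 for Mir17hg, 0.52 for Malat1 and 0.07 for Tug1.

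Of the 1399 tested genes annotated as lncRNAs, 38.7% were called, 424 higher and 117 lower, or 30.3% and 8.36%. Of 14718 tested protein-coding genes, 42.0% were called, 19.4% higher and 22.6% lower. Among the 605 lncRNAs of at least 1 CPM, 227 were higher and 81 lower. The largest falls of that kind were Gm10522 (log2 fold change -3.46, adjusted p = 1.74e-05), Gm40977 (-3.08, adjusted p = 1.07e-04), 2310043M15Rik (-2.97, adjusted p = 7.34e-06), Lncenc1 and Gm33027 (-2.16, adjusted p = 4.09e-04). Lncenc1 had the highest level of the 5, at 142 CPM in expressing cells, against 3.95 CPM for Gm10522. The largest rises were Gm36283 (2.41, adjusted p = 5.12e-05), Gm20633 (2.13, adjusted p = 0.00174), Gm17501 (2.10, adjusted p = 1.40e-05), Hoxb3os (2.01, adjusted p = 3.34e-04), an antisense RNA of a Hox gene, and 5830418P13Rik (1.94, adjusted p = 7.35e-06).

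**Figure D4:**
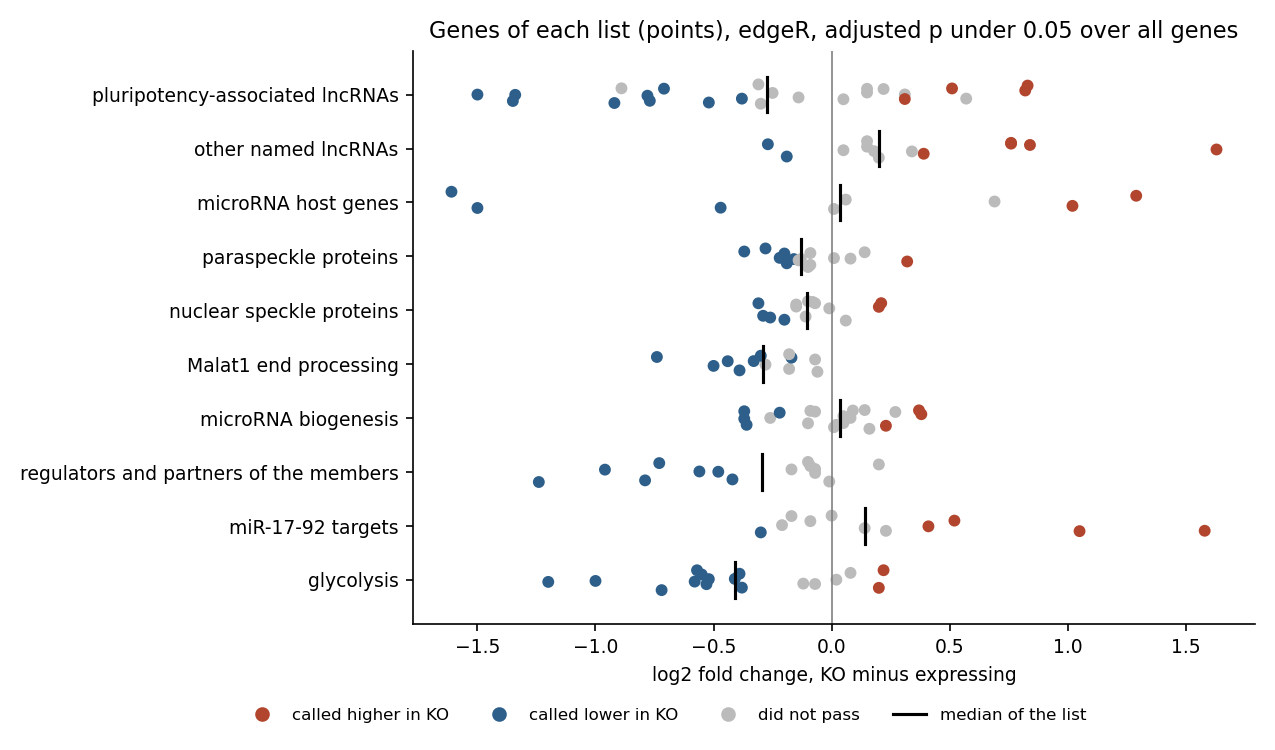
Log2 fold change of KO over expressing cells (horizontal axis) for every tested gene of 10 lists (rows, 1 point per gene), coloured by whether the gene was called, with the list's median as a bar. The glycolysis list has its median at -0.41 and the miR-17-92 targets at 0.14.

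Of 13 other named lncRNAs tested, 5 rose and 2 fell. Neither fall was called with scaling by library totals, with a replicate block, or without expressing replicate 2, expressing replicate 3 or any 1 of the KO replicates. Trp53cor1, which lies beside Cdkn1a, had 5.57 ± 0.591 CPM in KO cells and 1.81 ± 0.359 CPM in expressing cells (log2 fold change 1.63, adjusted p = 7.20e-05). Pvt1, the lncRNA beside Myc, rose by 0.84 (adjusted p = 5.28e-05), and both Jpx, of the X-inactivation centre, and Sox2ot, which overlaps Sox2, rose by 0.76 (adjusted p = 0.00101 and 0.00206).

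Markers of other cell types moved between the same groups. All 10 primitive endoderm markers tested rose, and their summed level was 582 to 601 CPM in KO cells and 129 to 161 CPM in expressing cells. Of 7 tested markers of 2-cell-like cells, 5 rose, with a summed level of 38 to 41.9 CPM in KO cells and 17.4 to 20.6 CPM in expressing cells. Of 7 tested fibroblast markers, 2 rose and 1 fell, and the summed levels overlapped (90.6 to 171 CPM in KO cells and 97.4 to 126 CPM in expressing cells). KO replicate 2 stood above KO replicates 1 and 3 for Col1a2 (68 CPM, against 31.6 and 31.8) and Col3a1 (14.8 CPM, against 9.72 and 9.9). It did not for Dcn (2.77 CPM, against 2.81 and 2.19). No marker of these lists was at 0 in all libraries. Their part in the levels of the 8 RNAs was not tested.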

How the data were processed

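The authors deposited raw read counts by gene for 6 libraries. Per the labels' protocols, each library started from 800 ng of total RNA and was made by a stranded poly(A) method with 12 PCR cycles. The submitters' processing notes name bcl2fastq 2.20.0.422, cutadapt 1.10, STAR 2.5.3a, HTSeq 0.6.1p1 and mm10. Settings were not given in the sources used here. Symbols and positions came from GENCODE M21, which named 55141 of the 55401 identifiers. The rest held at most 0.00465% of a library's counts.

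Genes were kept by filterByExpr (minimum count 10, total 15), scaled by TMM and tested by edgeR 4.0.16 quasi-likelihood in R 4.3.3 with the group as the only term, adjusting p over all 17778 genes by Benjamini-Hochberg (threshold 0.05). "Rose", "fell" and "called" mean an adjusted p under 0.05. The common coefficient of variation was 9.05%. The fit was tested on simulated data. The floor of 3 counts covers counting error only, and the intervals include the spread between libraries. Counts of replicates differed beyond sampling noise (chi-square over degrees of freedom 3.27 to 33.9), so none is a copy. Replicate numbers did not pair the samples. Dishes may come from 1 culture, and p-values measure the spread between dishes.

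Members and gene lists were chosen with earlier results of these data known. Genes were named by rule: in each list the 4 with the smallest p of at least 1 CPM, the nearest tested gene on each side of a member, the 5 most alike and the 5 lncRNAs with the largest changes in each direction. Some genes that the rule picks are not reported here. Alternatives were DESeq2 1.42.0, DESeq2 size factors, library totals, no filter, at least 1 CPM in 3 libraries, a replicate block, a GC trend removed (lowess span 0.3) and leaving out each library.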

Additional observations from a re-analysis of the deposited data

How the results depend on the processing

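Directions of Lncenc1, Neat1, Dancr, Mir17hg, Malat1 and Mir124a-1hg held in all 13 alternatives. Log2 fold changes ranged from -2.30 to -2.16 for Lncenc1, -1.71 to -1.53 for Neat1, -1.51 to -1.29 for Dancr, -0.96 to -0.68 for Mir17hg, 0.46 to 0.67 for Malat1 and -0.43 to -0.22 for Mir124a-1hg. Tug1 (-0.05 to 0.24) and Miat (-0.09 to 0.02) changed sign, and neither was called in any. Mir124a-1hg was called with the GC trend removed and without KO replicate 3. Calls over all genes numbered 7117 (48.1% higher), against 7036 with library totals (63.5% higher) and 5188 to 9440 with a library left out. With at least 1 CPM in 3 libraries, 349 lncRNAs were called, against 541, since fewer were tested (642).

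Of paraspeckle protein genes, 7 were called, against 3 with library totals, 12 with the GC trend removed and 2 to 13 with a library left out. Of microRNA biogenesis genes, 7 were called, against 12 with the GC trend removed and 6 to 13 with a library left out. Of nuclear speckle protein genes, 6 were called, against 0 to 11 with a library left out; the 0 came from edgeR without KO replicate 2, where 5 had an unadjusted p under 0.05. Of miR-17-92 targets, 5 were called, against 3 to 7. Except where stated, the cause was not tested. Same-numbered samples did not deviate together (r = 0.024, -0.034 and 0.042). The replicate block called 6644 genes and 3 nuclear speckle protein genes. Differences near the floor of 3 counts could not be detected at this depth.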
